A study of Mus musculus with 16 samples.

Results

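Among the places where trimethylation of histone H3 lysine 4 (H3K4me3) was called in every H3K4me3 library of muscle macrophages, 1885 of 13298 regions, or 14.2%, carried no region of a second mark that was called with the same regularity. Peaks of the 4 H3K4me3 lists were merged where they overlapped by at least 1 bp, a region counted as shared when all 4 lists had a peak in it, and a shared H3K4me3 region became a member when it touched no shared region of H3K18 lactylation (H3K18la), H3K27 acetylation (H3K27ac) or H3K27 trimethylation (H3K27me3). The members covered 4.72 Mb, or 10.2% of the bases in shared H3K4me3 regions. The other shared regions were 5959 with H3K27ac only, 3946 with H3K27ac and H3K18la, 939 with H3K27me3 only and 569 with other combinations.

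The cells were CD45+CD11b+F4/80+CD64+ macrophages sorted from calf muscle of male C57BL6J wild type mice, 8 to 12 weeks old, whose femoral artery had been ligated to make the hindlimb ischemic. They were taken at 2 or 4 days post injury (dpi), and every mouse had the ligation, so there is no uninjured group. Each mark was profiled by CUT&Tag, where a transposase tethered by an antibody cuts out the DNA next to a histone mark for sequencing, in 2 libraries per time point and 16 in all. The study calls the libraries of a group biological replicates, but the labels do not tie a library to an animal, and p-values below measure the spread between libraries. Each library is given as a list of peaks from the peak caller SEACR, with 16446 to 18413 usable peaks per H3K4me3 list, 24976 to 35971 for H3K27ac, 15190 to 27578 for H3K18la and 12060 to 14836 for H3K27me3. The depth of the libraries is unknown. Coordinates are of mouse build GRCm39. No annotation or genome of this build was used here, so the regions are named by position, and neither genes nor sequences are given.

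H3K4me3 is laid down around the start sites of genes, mostly at CpG-rich promoters, and is found at promoters that are active as well as at promoters that are only poised. H3K27ac is added by acetyltransferases at active promoters and enhancers. H3K27me3 is the mark of Polycomb repression and shares some promoters with H3K4me3 in a state known as bivalent. H3K18la is a lactate-derived acylation described at active promoters and enhancers. A region with H3K4me3 alone is thus a place with the promoter mark where neither the acetylated nor the Polycomb-repressed state was called.

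The first question was whether the other marks were in fact absent. For H3K27ac they were mostly not. A peak of H3K27ac lay over 1672 of the 1885 members, or 88.7%, in at least 1 of its 4 lists. It was present in 3 lists at 908 members, in 2 lists at 445, in 1 list at 303 and in none at 213. At a further 16 members all 4 lists had a peak, but in H3K27ac regions that were each not shared by all lists. H3K18la had a peak in at least 1 list at 603 members (32.0%) and H3K27me3 at 195 (10.3%). No list of any other mark had a peak at 151 members, or 8.01%, and at 996 members the only other mark seen was H3K27ac. The members are therefore best read as regions without a regularly called second mark, and not as regions free of other marks.

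**Figure D1:**
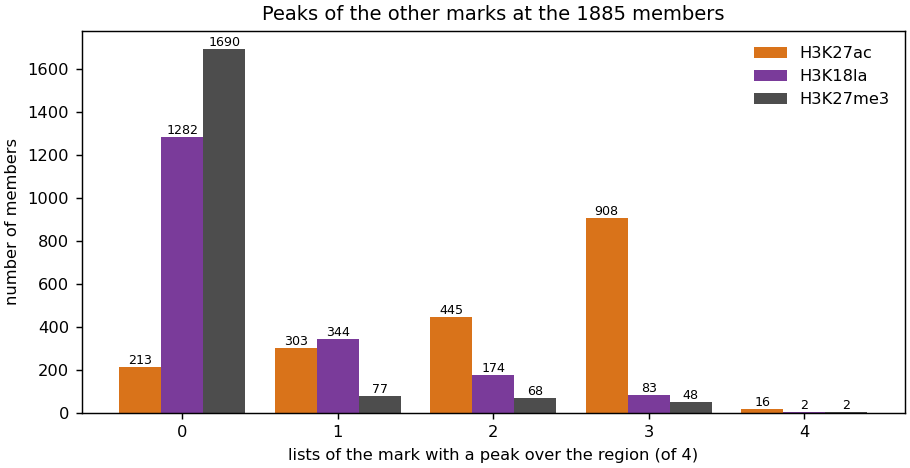
Number of the 1885 members (y axis) by how many of the 4 lists of a mark had a peak over the region (x axis), for H3K27ac, H3K18la and H3K27me3. Most members had H3K27ac in 3 lists (908) or 2 lists (445), whereas 1282 had no H3K18la and 1690 no H3K27me3 in any list.

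The libraries differed in how often they marked the members. H3K27ac peaks lay over 1264 members at 2 dpi in replicate 1 but over 542 in replicate 2, and over 1083 and 1092 at 4 dpi. The second library at 2 dpi, whose list was also the shortest of this mark with 24976 peaks, was thus the low one, and the 4 dpi libraries lay between the 2 dpi libraries. Of the 908 members with H3K27ac in 3 lists, the list without a peak was that library in 501 (55.2%), 4 dpi replicate 1 in 234, 4 dpi replicate 2 in 115 and 2 dpi replicate 1 in 58. When the rule was applied with the other 3 H3K27ac lists alone, 1361 regions remained without a shared second mark. For H3K18la, 503 members had a peak at 2 dpi in replicate 1 and 85 in replicate 2, against 165 and 196 at 4 dpi. H3K18la 2 dpi replicate 1 stood above the rest, and its list of 27578 peaks was the longest of the mark. For H3K27me3, 102 and 26 members had a peak at 2 dpi, and 116 and 121 at 4 dpi. In all 3 marks 2 dpi replicate 2 touched the fewest members.

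Where H3K27ac was called at a member, it was weak. Peaks were ranked by total signal within their list, and the H3K27ac peaks at members had a median percentile of 39.9 and 35.4 in the 2 dpi libraries and of 45.4 and 38.1 in the 4 dpi libraries. At H3K4me3 regions with shared H3K27ac the same medians were 79.2, 74.5, 80.1 and 78.8. The ranges of the libraries did not overlap between the groups. These values come from the calls that chose the members and were not tested.

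The H3K4me3 signal of the members was also low. The rule used no signal value beyond asking for a peak in every list, but it bars regions by overlap of at least 1 bp. A longer region has more bases that can touch another mark, and total signal grows with called length. The rule can therefore favour short regions of low total signal, and its part in the differences below was not tested. Total signal was ranked within each library over the 13298 shared regions, so that 50 is the middle of the shared regions. The median percentile of the members was 23.1 and 21.2 at 2 dpi and 25.8 and 24.3 at 4 dpi. The other shared regions had medians of 55.5, 55.8, 55.6 and 55.8 in the same libraries. Every library placed the members far lower, on average at 23.6 ± 1.93 (SD, n = 4 libraries) against 55.7 for the others, a difference of -32.06 ± 1.99. A 2-sided exact sign-flip permutation test over the 4 libraries gave a p of 1 in 8, the smallest it can give with 4 libraries, here and in each of the 16 comparisons of this kind. Since each library is a bulk of sorted cells, a lower signal in all cells and a mark present in fewer cells cannot be told apart.

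The members were also shorter, which the rule can favour in the same way. Their merged regions had a median length of 2332 bp, against 3233 bp for the other shared regions, and ran from 178 to 15239 bp. Only 33 members, or 1.75%, were longer than 5000 bp, compared with 15.3% of the other shared regions. Within single libraries the median called length of the members was 1497 and 1616 bp at 2 dpi and 2179 and 1646 bp at 4 dpi, and that of the others was 2240, 2419, 3049 and 2377 bp. The members were shorter in 4 of 4 libraries, on average by -787 ± 63.8 bp. The library 4 dpi replicate 1 called longer peaks than the rest in members and others alike.

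A peak of H3K27ac lay over 88.7% of members in at least 1 list, and a peak of H3K27me3 over 10.3%. By the strength, length and shape of H3K4me3, however, regions with H3K27me3 as the only second mark were the closest of the classes compared. Their median percentile of total signal was 31.3 and 27.1 at 2 dpi and 26.6 and 26.2 at 4 dpi, above the members in 4 of 4 libraries, but the members differed from them by only -4.20 ± 3.40 points. For the maximum of the coverage the order was the other way round. The members reached a median percentile of 30.0 ± 1.16 and the H3K27me3 regions 23.1 ± 2.04, and the members were higher in 4 of 4 libraries by 6.89 ± 2.56 points. The members were the shorter ones, with a called length of 1734.5 ± 303 bp against 2168.5 ± 378 bp and a difference of -434 ± 76.8 bp. The ratio of the maximum to the mean coverage of a called region, a measure of how peaked it is, was 3.78 ± 0.203 in members and 3.73 ± 0.202 in H3K27me3 regions, but 4.52 ± 0.225 in regions with H3K27ac only. Members were thus short with a moderate summit, and regions with H3K27me3 longer with a lower one.

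**Figure D2:**
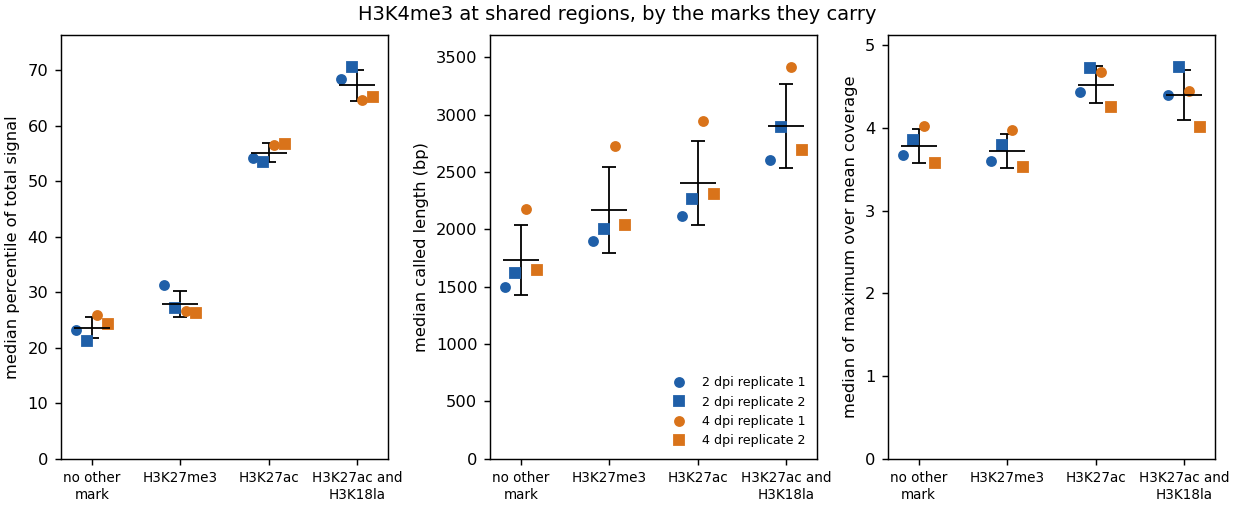
Median H3K4me3 percentile of total signal, called length (bp) and ratio of maximum to mean coverage (y axes) of members and of the regions with H3K27me3 only, H3K27ac only, or H3K27ac and H3K18la (x axis). Points are the 4 libraries, bars their mean and SD, and in all 4 libraries the members had the lowest percentile and the shortest length of the 4 classes.

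H3K4me3 strength followed how often H3K27ac was called. Members with H3K27ac in 0 lists had a median percentile of 15.8 and 12.6 at 2 dpi and 12.0 and 13.5 at 4 dpi. With H3K27ac in 3 lists the medians were 29.4, 28.1, 32.5 and 30.8. Members with 1 and 2 lists lay between these values except in 2 dpi replicate 1, where 1 list gave 15.6. Taking the mean percentile over the 4 libraries, the median was 29.8 at members with H3K27ac in 3 lists. It was 54.4 at regions with H3K27ac in all 4 lists and no other mark. The latter are the whole class of 5959 regions, and not those nearest the rule. The 151 members with no peak of another mark in any list had a median of 14.3. Median called length grew as well, from 1355, 1401, 1801 and 1453 bp at 0 lists to 1593.5, 1705, 2323 and 1754.5 bp at 3. The limit of the 1 bp rule given above thus applies here too, and its part was not tested.

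The low median hid a wide spread. Mean percentiles of single members ran from 0.619 to 93.4, with 253 members (13.4%) at 50 or above and 4 at 90 or above. The strongest by this mean was chr8:3564717-3568276, with percentiles of 95.4 and 93.8 at 2 dpi and 94.3 and 90.2 at 4 dpi and a called length of 2769 to 3470 bp. It had an H3K27ac peak in 3 lists, all but 2 dpi replicate 2, and an H3K18la peak in 1. The next, chr1:93269309-93272690, had 93.1, 93.3, 92.1 and 95.1 and lacked H3K27ac in 4 dpi replicate 2 only. The libraries agreed within a few points on both regions. The third, chr7:11744114-11751147, was uneven, with 97.8 and 98.9 at 2 dpi and 77.4 and 91.6 at 4 dpi, and fell between the time points in the test described further on. Of the 10 strongest members, 8 had H3K27ac in 3 lists and the other two in 2 lists, so each stood near the edge of the rule, and none had an H3K27me3 peak.

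Members with no peak of any other mark in any list were a clearer case of H3K4me3 alone. The strongest of them by mean percentile was chr4:146545157-146559596, a region of 14440 bp described with the long members below. The next was chrX:139356388-139359538, 3151 bp long, with percentiles of 68.8 and 72.2 at 2 dpi and 58.5 and 55.6 at 4 dpi. Its 4 dpi values lay below its 2 dpi values, but the shift did not pass the test across all regions (limma adjusted p = 0.0756). A compact one was chr11:110289439-110291790, at 51.2 and 51.6 and then 48.4 and 55.0 in total signal and at 90.6, 85.0, 80.9 and 88.6 in maximum signal. It was tall in every library. Its called length of 1665, 1700, 2311 and 2244 bp lay above the median of the members and below that of the other shared regions. Total and maximum signal did not separate the time points. Likewise chr9:72344970-72346852 had a total signal at 59.3, 53.2, 51.6 and 46.1 but a maximum at 82.0, 84.6, 90.6 and 82.2. These compact regions held more H3K4me3 at their summit than the middle of the shared regions, without a call of H3K27ac, H3K18la or H3K27me3 in any of 12 lists.

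Members were unevenly spread over the chromosomes. On the X chromosome 129 of 358 shared H3K4me3 regions were members, or 36.0%, against 1755 of 12930 on the autosomes, or 13.6%. The 19 autosomes ranged from 8.21% on chromosome 18 to 16.4% on chromosome 4, so that no autosome came near the X, and on the Y chromosome 1 of 10 regions was a member. Shared H3K27ac covered 56.7% of the X-linked regions and 78.5% of the autosomal ones, and shared H3K18la 14.2% and 32.3%. The mice were male and have a single X per cell, and the part of this in the shares was not tested. X-linked regions also had less H3K4me3, with a median mean percentile of 40.7 against 49.5. At a given strength the X still had more members. Among regions with a mean percentile below 20, 56.2% of the X-linked and 31.1% of the autosomal regions were members, and between 60 and 80 these shares were 19.6% and 3.25%. Above 80 only 1 of 34 X-linked regions and 17 of 2505 autosomal ones were members.

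**Figure D3:**
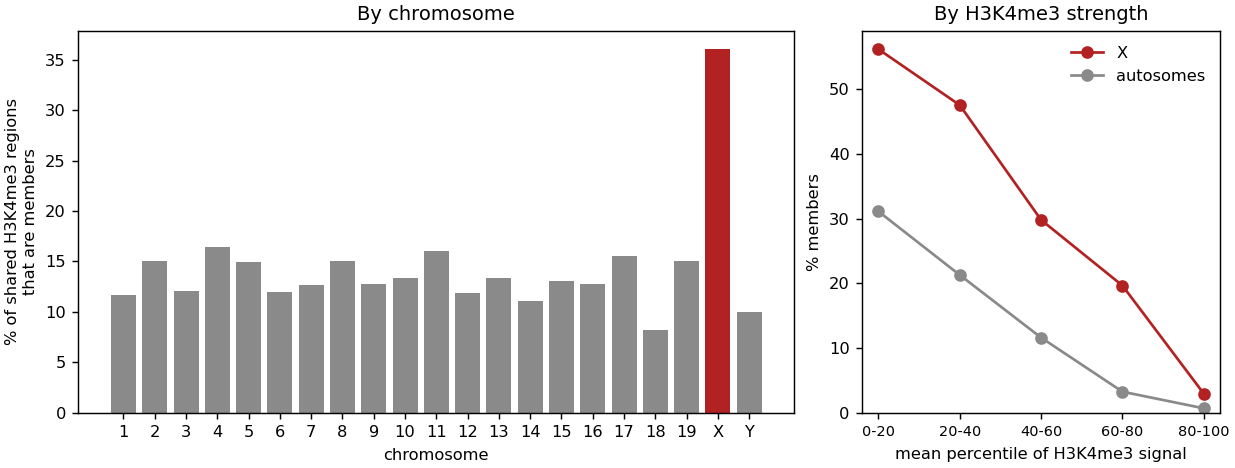
Left, percentage of shared H3K4me3 regions that were members (y axis) per chromosome (x axis), with X in red at 36.0% and the autosomes at 8.21% to 16.4%. Right, the same percentage for X and autosomes in 5 bands of mean H3K4me3 percentile (x axis), with X above the autosomes in each band and only 34 X-linked regions in the highest.

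The X-linked members themselves were stronger than the autosomal members in each library, with median percentiles of 31.1 and 30.8 against 22.7 and 21.0 at 2 dpi and of 29.2 and 27.7 against 25.7 and 23.9 at 4 dpi. H3K27ac was called over 70.5% of them in 2 dpi replicate 1 and 57.4% in 4 dpi replicate 2, close to the 66.8% and 58.0% of autosomal members. In the other two H3K27ac libraries it was less frequent on the X, with 20.9% against 29.3% in 2 dpi replicate 2 and 38.8% against 58.9% in 4 dpi replicate 1, whose description in the labels begins with another code than those of the other H3K27ac libraries. What the code stands for is not given, and its part in these shares was not tested. Without 2 dpi replicate 2 in the rule, 27.4% of X-linked and 9.76% of autosomal regions were members, and without 4 dpi replicate 1 the shares were 33.0% and 13.1%. The excess on the X remained in both cases. Membership comes from the calls of the other marks, so these shares are a description without a test.

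The rule bars overlap with shared regions of the other marks, so members have a distance above 0 to each by choice. Its median was 31.0 kb to the nearest shared H3K27ac region, and 13.1% of members had one within 5 kb. To shared H3K18la and H3K27me3 it was 88.2 and 87.0 kb, compared with 71.5 and 87.7 kb for regions with H3K27ac only. The next shared H3K4me3 region was at a median of 27.4 kb, compared with 21.9 kb for regions with H3K27ac only and 46.1 kb for those with H3K27me3 only. Among the shared H3K4me3 regions in order along the chromosomes, 688 members (36.5%) had another member as a direct neighbour.

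There were 6 runs of 5 or more members in a row. The longest held 9 members at chr4:41909489-42767565, over 858 kb, with regions of 1532 to 2759 bp. Whether these 9 share repeated sequence was not checked, so they are not known to be separate observations. All were weak, with mean percentiles from 3.30 to 19.1 and a median of 3.98, and 7 of the 9 had an H3K27me3 peak in at least 1 list while 3 had an H3K27ac peak. In the other 5 runs no member had an H3K27me3 peak and nearly all had an H3K27ac peak. The run at chr2:127285237-127675385 held 6 members, 5 of them with H3K27ac in some list. That at chrX:7440477-7589434 held 5 members with mean percentiles of 20.3 to 69.2, all with H3K27ac in some list, and the most compact, at chr19:6110496-6136443, held 5 members within 25.9 kb, of which 2 rose from 2 to 4 dpi.

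The study followed macrophages as they pass from an inflammatory to a restorative state, and H3K4me3 at the members was therefore compared between 2 and 4 dpi. Ranks of total signal over all 13298 shared regions were turned into normal scores in each library and tested with limma, so that a positive shift in score is a rise from 2 to 4 dpi. At an adjusted p under 0.05, 123 members (6.53%) rose and 84 (4.46%) fell. Over all shared regions 7.78% rose and 8.07% fell, the background beside which the 6.53% and 4.46% of the members stand. Regions with H3K27ac only rose in 10.3% and fell in 4.60%, those with H3K27ac and H3K18la rose in 5.40% and fell in 13.8%, and those with H3K27me3 only in 3.41% and 10.4%. The difference between classes was not tested. The median shift was 0.05 over members and 0.01 over all regions.

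The counts leaned on single libraries and on the measure. With the variance of a single common prior in place of the trended, robust one, no region passed in limma, although 578 members had an unadjusted p under 0.05 (504 with the trended prior), and with the mean signal per called base in place of the total, a choice made after the data were seen, 0 members rose and 2 fell (0 and 0.0376% of all regions). Maximum signal gave 27 and 15 members (1.49% and 1.24% of all regions). Without 4 dpi replicate 1, 17 members rose and 50 fell (2.35% and 4.29% of all regions), and without 4 dpi replicate 2, 13 and 34 (1.8% and 3.56%). Without 2 dpi replicate 1, 237 rose and 104 fell (11.1% and 9.63% of all regions), and without 2 dpi replicate 2, 204 and 106 (10% and 8.08%). With either 2 dpi library left out, the share of members that rose was above that of all regions, and not below it as with no library left out. The calls are thus of regions whose total signal, a product of coverage and called length, changed rank. At the 123 risers the median called length was 1363 and 1533 bp at 2 dpi and 2680 and 2170 bp at 4 dpi, while at the 84 that fell it was 2220, 2333.5, 2420 and 1731 bp.

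Members that rose, chosen by the test on these same values, went from low in the ranking to near its middle. Their median percentile was 12.6 and 12.6 at 2 dpi and 41.3 and 44.3 at 4 dpi, with shifts from 0.42 to 2.09. Members that fell, chosen in the same way, went from 54.9 and 54.3 at 2 dpi to 26.5 and 22.0 at 4 dpi, with shifts from -0.35 to -1.91. Members that were not called stayed near 20.7 to 23.9 in all libraries. Of the risers 7 (5.69%) had no peak of another mark in any list, and of those that fell 11 (13.1%), against 8.01% of all members.

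The largest rise was at chr1:134287972-134290729. Its percentiles were 0.290 and 0.259 at 2 dpi and 24.8 and 24.2 at 4 dpi, a shift of 2.09 ± 0.42 (SE; limma adjusted p = 0.00767). Both 2 dpi libraries held it among the very weakest regions, and the groups were far apart in total signal. Its called length went from 705 and 1228 bp to 2523 and 2163 bp. Maximum signal shifted by 0.72 (limma adjusted p = 0.307) and mean signal per called base by 0.145 (limma adjusted p = 0.901), and neither passed. The region had H3K27ac in 3 lists and no peak of H3K18la or H3K27me3. The next, chr16:32063867-32067575, went from 3.32 and 2.395 to 51.0 and 44.3, a shift of 1.85 ± 0.27 (limma adjusted p = 0.00159), also with H3K27ac in 3 lists. At chr7:79943295-79945936 the percentiles were 3.77 and 0.380 and then 41.3 and 28.7. Among the 10 largest rises, 7 had H3K27ac in 3 lists. Only chr5:124689276-124692131 (5.25 and 0.414, then 35.4 and 37.7) and chr19:6116490-6118593 (1.00 and 5.73, then 37.3 and 36.5) had no peak of another mark in any list. In all 10 the 2 libraries of 4 dpi lay above both of 2 dpi, and 2 dpi values were at 8.22 or below. When either 4 dpi library was left out, 8 of the 10 no longer passed, among them the largest (shift of 2.08 and limma adjusted p = 0.114 without replicate 1, 2.10 and limma adjusted p = 0.117 without replicate 2), while those at chr16:32063867-32067575 and chr14:65594248-65599136 still did.

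The largest fall was at chr17:18776780-18780912. Percentiles were 45.1 and 37.6 at 2 dpi and 1.60 and 1.72 at 4 dpi, a shift of -1.91 ± 0.30 (limma adjusted p = 0.00236), and the called length went from 3731 and 3308 bp to 1484 and 1151 bp. Its maximum signal went from 43.2 and 39.9 to 2.80 and 15.5, a shift of -1.25 that missed the threshold (limma adjusted p = 0.0532), while the mean signal per called base shifted by 0.04. The extent and the summit of the call were thus lower at 4 dpi, and its mean coverage was not. At chr14:120016249-120018318 the percentiles went from 27.96 and 27.02 to 0.508 and 1.17 while the called length stayed between 1682 and 2045 bp, and the maximum went from 49.8 and 40.6 to 2.80 and 11.5. In this region both the total and the summit were lower at 4 dpi. At chrX:163038990-163042448 the percentiles were 52.9 and 50.1 and then 6.63 and 5.16. Of the 10 largest falls, 4 had an H3K18la peak in 2 lists, whereas 1 of the 10 largest rises had, beside 9.23% of all members. This was not tested. The falls at chr4:145563910-145567560, chr4:145550101-145563616 and chr4:147260305-147269893 lie in a single stretch described below and are not known to be separate observations. Of the 10, only chr4:84801922-84804335 (limma adjusted p = 0.145 without 2 dpi replicate 2, 0.0724 and 0.159 without either 4 dpi library) and chr12:105900842-105904375 (0.101 without 4 dpi replicate 2) lost their call when a library was left out.

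**Figure D4:**
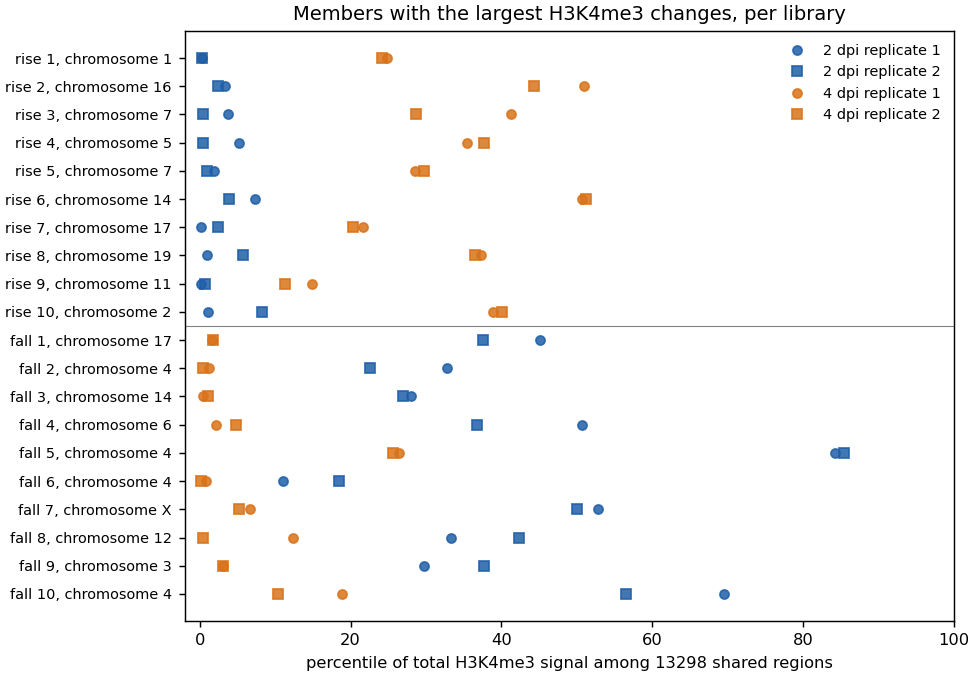
Percentile of total H3K4me3 signal in each library (x axis) for the 10 members with the largest rise and the 10 with the largest fall (y axis, chosen from the tested values by size of shift). The 2 dpi and 4 dpi libraries did not overlap in any of the 20 regions.

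Peaks of the other marks differed between risers and fallers in the same 2 dpi material. H3K18la in 2 dpi replicate 1 lay over 17 of 123 risers (13.8%) and 38 of 84 fallers (45.2%), against 26.7% of all members, and in 2 dpi replicate 2 over 2 and 10. At 4 dpi H3K18la lay over 7 and 6 risers and 8 and 10 fallers. In 2 dpi replicate 2 these were 1.63% of risers and 11.9% of fallers, against 4.51% of all members. At 4 dpi they were 5.69% and 4.88% of risers and 9.52% and 11.9% of fallers, against 8.75% and 10.4% of all members. Fallers thus stood above all members in both 2 dpi libraries and near them at 4 dpi. The highest count was that of 2 dpi replicate 1, the library with the longest H3K18la list. H3K27ac lay over 92 and 55 risers at 2 dpi (74.8% and 44.7%) and 52 and 19 fallers (61.9% and 22.6%), and at 4 dpi over 62 and 87 risers and 53 and 47 fallers. H3K27ac was thus more frequent at risers in both 2 dpi libraries, and in the 4 dpi libraries it went either way, with 50.4% of risers against 63.1% of fallers in replicate 1 and 70.7% against 56.0% in replicate 2. By the number of H3K27ac lists with a peak, 3.29% of members rose at 0 lists, 4.95% at 1, 5.39% at 2 and 8.26% at 3, while 7.04%, 3.96%, 2.92% and 4.74% fell. These shares rest on calls in the listed libraries and were not tested.

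Members longer than 7 kb stood out by their direction, and shorter ones did not share it. Of the 23 members longer than 5000 and up to 7000 bp, 3 rose and 2 fell, with a median shift of 0.13. Of the 350 longer than 3000 and up to 5000 bp, 48 rose and 29 fell, with a median shift of 0.11. Of the 10 members longer than 7 kb, 9 fell and 0 rose, with a median shift of -1.17, whereas of 539 other shared regions of that length 75 fell and 101 rose, with a median shift of 0.05. The longest, chr3:93111838-93127076, had percentiles of 93.4 and 97.0 in total signal at 2 dpi and 65.1 and 64.0 at 4 dpi, a shift of -1.32 ± 0.13 (limma adjusted p = 0.000123). Its maximum signal was only at 1.79, 7.67, 0.368 and 4.06, so it was a long and very flat domain. Its single other peak was of H3K27ac, in 1 list. The only member longer than 7 kb that did not fall was chr19:11381562-11389823, at 18.98 and 11.1 and then 59.0 and 25.3. There the 4 dpi libraries differed widely. The same 9 members fell when any 1 of the 4 H3K4me3 libraries was left out, by limma as above, and none of them passed with maximum signal, mean signal per called base or the common prior.

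Of the 10 longest members 6 lay in a single stretch of 1.76 Mb on chromosome 4, chr4:145550101-147312047, which was singled out after its values had been seen. It held 13 shared H3K4me3 regions, of which 8 were members. No genome of this build was used, so whether the 8 share repeated sequence was not checked. They, and with them the 6 among the 10 longest, are not known to be separate observations. All 8 fell, with shifts from -0.88 to -1.83, and 7 of them without 4 dpi replicate 1. The 5 other shared regions in it all had H3K27ac in 4 lists, 2 of them fell, and their shifts lay between -0.34 and -0.53. The 8 members were 3651 to 14440 bp long, with maximum signals at percentiles of 0.0338 to 20.05, whereas the 5 others were 1765 to 3898 bp long with maxima at 12.6 to 71.6. Most members of the stretch were thus wider and lower than the others, but the ranges of length and of maximum overlapped. The members chr4:145563910-145567560 (3651 bp) and chr4:146559742-146563547 (3806 bp) were shorter than chr4:147215549-147219446 (3898 bp), which was not a member. The ranges of the shifts did not overlap.

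Single members of the stretch show these falls. The region chr4:145550101-145563616 had total signal at 84.3 and 85.4 at 2 dpi and 26.4 and 25.6 at 4 dpi, a shift of -1.67 ± 0.14 (limma adjusted p = 3.81e-05), while its called length went from 12020 and 13516 bp to 6862 and 3927 bp. No other mark had a peak there in any list. Its neighbour chr4:145563910-145567560, only 293 bp away, went from 32.8 and 22.6 to 1.20 and 0.478 with a called length of 2687, 3055, 2310 and 2756 bp. Here the length changed little and the signal in it fell. The region chr4:146249310-146262532 went from 80.5 and 75.2 to 41.7 and 49.3, and chr4:147260305-147269893 from 69.5 and 56.5 to 18.9 and 10.3. Across all 8 the 2 dpi libraries lay above both 4 dpi libraries. Only 2 of the 8 had an H3K27ac peak, in 1 list each, and none had H3K18la or H3K27me3. With maximum signal 7 of 8 were lower and none passed the test, and with mean signal per called base 8 of 8 were lower and none passed.

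**Figure D5:**
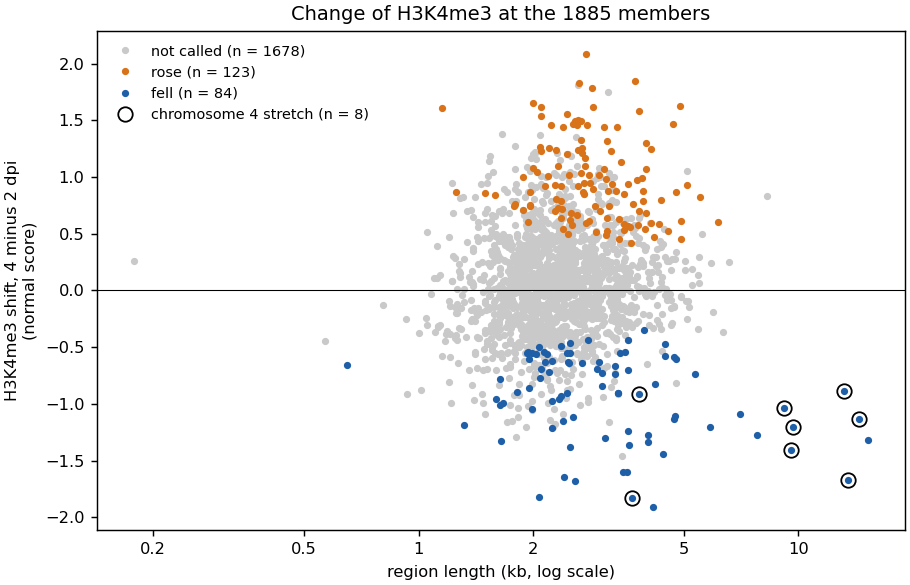
H3K4me3 shift from 2 to 4 dpi (y axis, normal score) against region length (x axis, kb, log scale) for the 1885 members, with the 123 that rose in orange and the 84 that fell in blue. Of the 10 members longer than 7 kb, 9 fell, and the 8 members of the chromosome 4 stretch (ringed) had shifts of -0.88 to -1.83.

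The partial calls of the other marks were also counted by time point. H3K27ac had a peak in both 4 dpi lists and neither 2 dpi list at 105 members, and the reverse at 53. Pairs across the time points were counted too. H3K27ac in 2 dpi replicate 1 and only replicate 1 or 2 of 4 dpi was seen at 141 and 98 members. With 2 dpi replicate 2 in its place these counts were 20 and 28. The 105 and 53 thus lay within the range of pairs across the time points. The share of all shared regions with these patterns is not given here. H3K27me3 had a peak in both 4 dpi lists and neither 2 dpi list at 35 members, with 5 in reverse. H3K18la went the other way, with 13 members marked in both 4 dpi lists only and 33 in both 2 dpi lists only. Beside these counts stands that 2 dpi replicate 2 had the fewest members marked in all 3 marks, whose part was not tested, and 2 libraries against 2 cannot go below p = 0.333 in an exact permutation test. In H3K4me3, 4 of the 105 with H3K27ac at 4 dpi only rose and 3 fell, and of the 53 in reverse 3 rose and 0 fell. Of the 33 with H3K18la at 2 dpi only, 1 rose and 7 fell, beside 6.53% and 4.46% of all members and 7.78% and 8.07% of all shared regions. These small counts were not tested.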

How the data were processed

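CUT&Tag libraries of 4 marks, 2 per mark and time point, were given as 1 peak list each. Per the labels and methods, reads were trimmed (Trim Galore 0.6.6), aligned (Bowtie2 2.4.4; SAMtools 1.13), turned into coverage (bedtools 2.30) and called per library with SEACR 1.3 without normalization. The deposited signal is the authors' total and maximum fragment coverage per peak, in whole numbers and unscaled, so values were compared as ranks within a library. SEACR keeps a top share of blocks, so list length moves with depth and background, and the depth is unknown. The labels and list names give GRCm39, while the methods name mm10 for alignment. Some peaks end beyond the GRCm38 chromosome ends. The genome and annotation at hand were GRCm38, so gene names, gene starts, macrophage marker genes, GC content and sequences were not analysed here. The methods state a blacklist filter, and none was applied here. For H3K27me3 at 4 dpi the list names number the replicates the other way round, and the labels were followed.

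Peaks on 21 chromosomes were merged with Python 3.11.15 (numpy 2.4.6, pandas 2.3.3, scipy 1.17.1). Signal per region was the sum over its peaks in a library. The time comparison used limma 3.58.1 (R 4.3.3; trended, robust variance) on normal scores of ranks over all 13298 shared regions with Benjamini-Hochberg adjustment, after a check on simulated data. Strength was compared over 4 libraries by 2-sided exact sign-flip permutation. Named members are the 10 highest in mean percentile (over all members and over those with no other peak), the 10 longest, and the 10 largest shifts each way among those called, from which examples are given. The members and lists were chosen with earlier results of these data known.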

Additional observations from a re-analysis of the deposited data

Results flagged for a closer look

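Outside the 21 chromosomes used, the H3K4me3 lists held 35 and 32 peaks at 2 dpi and 21 and 25 peaks at 4 dpi, on the mitochondrial genome or on unplaced contigs. They were left out of the shared regions and were compared with no control, since the series has none. Each mark had 2 libraries per time point, too few for a test of outlying libraries.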

How the results depend on the processing

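The number of members was 1361 to 2115 when 1 of the 16 libraries was left out, 1597 with the weakest 25% of each list left out and 1935 when an overlap had to cover at least 50% of either region. It was 151 when a peak of another mark in any 1 list barred a region, and 443 when peaks in at least 2 lists did. The difference in percentile lay between -24.10 and -36.70 and that in called length between -759 and -911 bp under each alternative run for them. Rising and falling members numbered 27 and 15 with maximum signal, 0 and 0 with a common prior, 0 and 2 with mean signal per called base, and 13 to 237 and 34 to 106 when 1 H3K4me3 library was left out. With the weakest 25% of each list left out, 88 members rose and 90 fell (5.51% and 5.64%, against 7.56% and 8.19% of all regions). With log2 of median-scaled signal 160 members rose and 131 fell (8.49% and 6.95%, against 7.05% and 14.2% of all regions). For rises the members there stood above the share of all regions and not below it. The same was seen without either 2 dpi library, and the reverse without either 4 dpi library. The cause was not tested. Of the 29 named members that were called, all kept direction except chr4:147302894-147312047 with maximum signal (0.14) and chr17:18776780-18780912 with mean signal per called base (0.040). The mice of the time points differ and same-numbered libraries did not deviate together (correlation -0.00265), so the numbers pair no libraries. With a replicate block 149 members rose and 96 fell (7.90% and 5.09%, against 9.04% and 9.02% of all regions), and all 29 stayed called. Shares holding a gene start and GC and CpG content, with their alternatives, were not run for want of a GRCm39 reference. Depth is unknown, so an absent peak is a peak not called.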
